A study of Mus musculus with 24 samples.

Results

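The chromatin regulators of this study are the probe sets on a mouse array that the platform annotation gives to a single gene symbol of a set of chromatin gene families. The families are the histone deacetylases (Hdac), the remodelling subunits (Smarc, Chd), the chromobox proteins (Cbx), and the lysine methyltransferases, demethylases and acetyltransferases (Kmt, Kdm, Kat). The Suv39 and Dnmt3 methyltransferases, the Polycomb genes Ezh and Eed, and the high mobility group genes Hmgb and Hmgn complete the set. The families were picked with earlier results of these data known, and their probe sets, taken by symbol, comprise 64 probe sets of 49 genes, out of 12422 probe sets that were not controls and 8251 genes named alone by a probe set. Of these, 51 probe sets of 41 genes were bright enough to be tested.

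Total RNA came from C2C12, an established mouse myoblast line whose cells stop dividing and fuse into myotubes when they differentiate. Affymetrix MG_U74Av2 arrays were hybridised with 3 samples on each of 8 days, 24 arrays in all. Days -2 and -1 held proliferating cells, day 0 cells at confluence when the differentiating medium was given, and days 2, 4, 6, 8 and 10 cells kept in that medium. No other treatment or genotype was named, and all groups were of this 1 line, so the days differ in time, density and medium together. The labels did not say whether replicates were separate cultures, so the p-values reflect the spread among these arrays alone, which may be technical.

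Chromatin regulators set how tightly DNA is wound on histones. Acetyltransferases open chromatin and deacetylases close it, methyltransferases and demethylases write and erase marks that other proteins read, and remodelling ATPases move nucleosomes. In muscle precursors, Polycomb proteins hold muscle genes silent, class II deacetylases restrain MEF2 factors, and SWI/SNF complexes together with the acetyltransferase Kat2b (PCAF) help MyoD switch its targets on.

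The promoters of 40 of the 49 genes were present in a RefSeq table of the mouse build GRCm38.p6, each as 250 bases before to 50 bases after the annotated start. Shown here are those of the gene pair Ezh2 and Ezh1, whose levels moved in opposite directions, and of Hmgb2 and Hmgb3, which had the largest falls of the high mobility group. The windows are chr6:47594981-47595280 (minus strand) for Ezh2, chr11:101226414-101226713 (minus strand) for Ezh1, chr8:57511593-57511892 (plus strand) for Hmgb2 and chrX:71555667-71555966 (plus strand) for Hmgb3. Capitals mark, on either strand, the letters of the E2F site, the CHR element or the CCAAT box, which are known from promoters of cell cycle genes.
Ezh2: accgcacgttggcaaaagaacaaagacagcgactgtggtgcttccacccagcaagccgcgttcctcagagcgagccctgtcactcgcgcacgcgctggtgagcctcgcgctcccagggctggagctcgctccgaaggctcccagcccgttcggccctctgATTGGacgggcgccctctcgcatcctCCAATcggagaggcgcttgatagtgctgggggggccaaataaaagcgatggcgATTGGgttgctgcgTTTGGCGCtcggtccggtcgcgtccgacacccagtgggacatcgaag
Ezh1: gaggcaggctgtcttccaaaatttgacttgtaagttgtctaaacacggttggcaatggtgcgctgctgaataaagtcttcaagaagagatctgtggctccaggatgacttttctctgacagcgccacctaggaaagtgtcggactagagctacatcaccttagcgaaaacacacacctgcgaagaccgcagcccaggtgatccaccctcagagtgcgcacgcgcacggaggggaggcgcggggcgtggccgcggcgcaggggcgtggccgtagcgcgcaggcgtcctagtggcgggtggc
Hmgb2: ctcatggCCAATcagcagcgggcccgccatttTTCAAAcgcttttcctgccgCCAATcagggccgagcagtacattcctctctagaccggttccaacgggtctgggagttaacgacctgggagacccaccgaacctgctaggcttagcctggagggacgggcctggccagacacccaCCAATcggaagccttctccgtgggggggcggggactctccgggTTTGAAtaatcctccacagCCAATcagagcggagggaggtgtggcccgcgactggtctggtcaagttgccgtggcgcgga
Hmgb3: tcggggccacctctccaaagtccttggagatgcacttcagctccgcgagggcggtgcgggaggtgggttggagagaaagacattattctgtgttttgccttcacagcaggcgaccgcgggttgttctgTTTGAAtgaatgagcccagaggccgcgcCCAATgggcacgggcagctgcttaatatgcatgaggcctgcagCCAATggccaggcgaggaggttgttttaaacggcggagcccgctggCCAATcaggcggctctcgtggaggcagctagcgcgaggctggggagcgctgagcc
The E2F site was searched as TTTCCCGC, TTTCGCGC, TTTGCCGC and TTTGGCGC, the CHR element as TTTGAA and TTCGAA, and the CCAAT box as CCAAT, on both strands. None of these motifs contains another. The Ezh2 window held the E2F letters TTTGGCGC at bases 4 to 11 after the start and CCAAT letters at 3 places, and the Ezh1 window held none of the 3 motifs. E2F letters were found in the windows of 4 of 40 genes (10.0%), Ezh2, Kat2a, Smarcd1 and Kmt5c, and in 2.6% of 27025 genes of the table. Of the genes lower on the late days, 3 of 22 held them, of those higher 0 of 6, and of those tested but not called late 1 of 5. CCAAT letters were in 50% of the chromatin genes and 41.1% of all, and CHR letters in 20% and 21.7%. The letters CAGCTG, an E-box that myogenic factors bind, were in 25.0% of the chromatin genes and 18.3% of all. A match describes letters in a window and does not show binding.

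Arrays of the same day correlated at 0.935 to 0.974 over the tested probe sets, and arrays of different days at 0.898 on average. Defining genes of muscle were present: myogenin (Myog) averaged 8.69 log2 units on day -2, 14.24 on day 0 and 14.65 on day 10, and all 9 muscle markers were bright enough to test. The summed intensity of these 9 markers lay between 23353 and 25501 on the arrays of days -2 and -1 and between 134605 and 175625 from day 2 on. Bright markers such as Acta1, with a day 10 mean of 15.95, weigh most in this sum. Not every marker rose: the mean of Myf5 went down from 10 (day -2) to 8.19 (day 10). Myod1 stood at 13.56 before confluence, reached 14.71 at day 0 and was back at 13.77 by day 10. Acta1, Myh3, Ckm, Des, Tnnt3 and Chrna1, like Myog, averaged higher at day 10 than at day -2. Of 5 macrophage markers measured, Lyz2 stood at the floor of 6.27 log2 units on all days and Cd14 averaged between 10.42 and 10.90, and the 5 summed to between 1690 and 2670 over all arrays. The 5 endothelial markers summed to between 278 and 1537, with Cdh5 at the floor on all days up to day 8 and Pecam1 as high as 8.42. The 5 adipocyte markers measured summed to between 6588 and 6785 on day 0 and to at most 4250 on any array of another day. Lpl averaged 8.40 on day -1, 11.40 on day 0 and 7.07 on day 2, and Cebpa 11.24, 11.80 and 10.48. The other markers did not share this peak: Pparg averaged 8.26, 7.67 and 6.80 on these days, and Adipoq and Fabp4 stayed between 6.27 and 7.33 on all days. The part of these markers in the results of day 0 was not tested. A list of 17 cell division genes (such as the replication helicase subunits Mcm2 to Mcm7 and the mitotic kinase Plk1) averaged 12.92 on day -2, 11.11 on day 0, 11.60 on day 2 and 10.61 on day 10. In RNA of whole cultures, fewer cells of a type and less RNA per cell cannot be told apart.

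Of the 51 tested probe sets, 32 (62.7%) differed among the 8 days in limma's moderated F test with Benjamini-Hochberg adjustment, called at an adjusted p under 0.05, against 55.2% of all 8479 probe sets tested. The daily means of the 32 spanned a median of 1.06 log2 units, 19 of them at least 2-fold and 5 at least 4-fold (Hmgb2, Kat2a, Kdm5b, Ezh1 and Ezh2). Kdm5b lay at the floor on day -2 and was bright enough to be tested only through later days. The highest daily mean fell on day -2 or day -1, in dividing myoblasts, for 22 of the 32 (68.8%), against 40.4% of all probe sets so called, and for 28 of the 51 tested (54.9%), against 32.4% of all tested. Ezh1, Hdac5, Kdm3a and Kdm6a were highest on day 4, Kat2b and Kdm5b on day 10, Cbx5 and Hdac2 on day 2, and Smarcd1 and a probe set of Smarca5 on day 0. By gene, with the brightest probe set standing for each, 30 of 41 (73.2%) differed among the days, and no share by gene over all genes is given here. With the scan day entered as a factor, 19 of the 51 were called, against 29.8% of all tested probe sets.

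**Figure D1:**
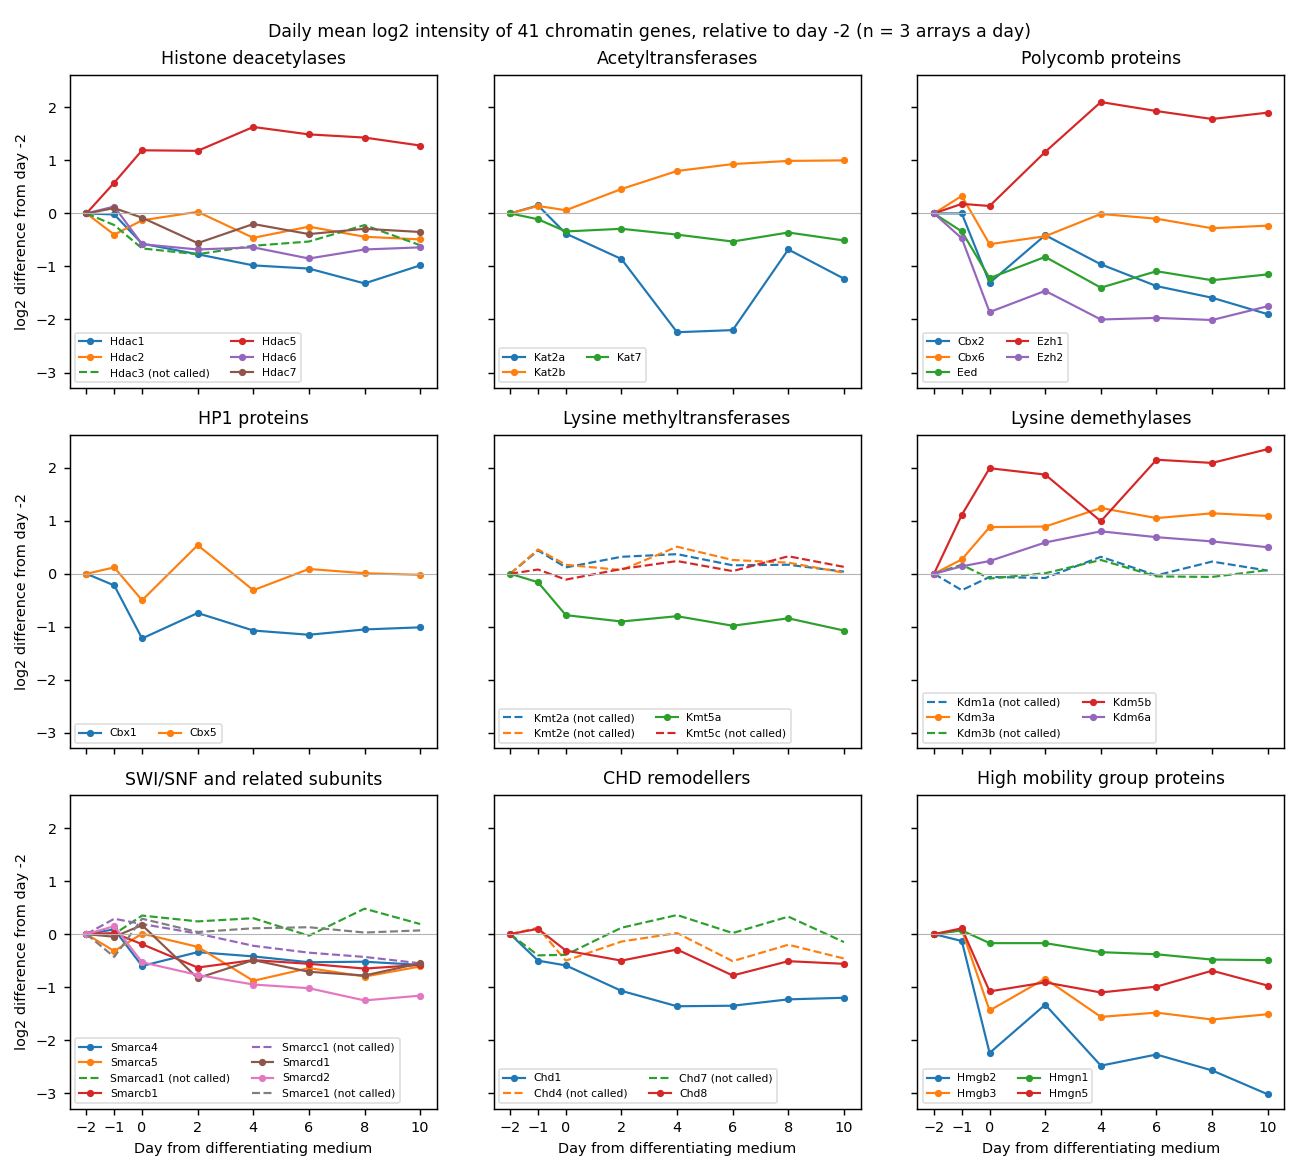
Daily mean log2 intensity of each of the 41 tested genes minus its own day -2 mean, against the day from the differentiating medium, in 9 panels by role; points are means of 3 arrays, and dashed lines mark genes that the F test over the 8 days did not call. Ezh1, Hdac5, Kdm5b, Kdm3a and Kat2b lie above 0 on the late days, while Ezh2, Hmgb2, Hmgb3, Chd1 and most others lie below.

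Day 0 was set against day -2 to see what differed by the time the cultures were confluent. The catalytic and core Polycomb subunits Ezh2 and Eed, the high mobility group genes Hmgb2, Hmgb3 and Hmgn5, and the heterochromatin protein gene Cbx1 fell, while the deacetylase gene Hdac5 and the demethylase genes Kdm3a and Kdm5b rose. Kdm5b was bright enough to be tested only through day 0 and later days. Of the 51 probe sets, 16 were lower on day 0, where 16.1% of all tested probe sets were lower, and 3 were higher, where 16.5% of all were higher. Both directions together, 37.3% of the 51 were called, against 32.6% of all tested. The 3 arrays of day 0 did not overlap those of day -2 for any of the 19 called, as for 95.8% of all called probe sets. Over all 51 tested the days lay apart for 26 (51%), against 41.6% of all tested. Of the 19, 8 changed at least 2-fold (42.1%, against 38.1% of all called). The median change of the 51 was -0.19 log2 units, and that of all tested probe sets was 0.01. All 17 cell division genes were lower on day 0 too, with a median of -1.94, and their part in the falls was not tested. Within the chip lot that held both days, all 15 probe sets called without its arrays changed in the same direction, while no scan day held both days. That lot held 2 arrays of day 0 and 1 of day -2, and the same share over all probe sets is not given here. With the scan day as a factor the falls of Ezh2, Eed, Hmgb2, Hmgb3 and Cbx6 and the rise of Hdac5 were still called, and the calls of the other 11 lower and 2 higher ended. In the largest chip lot alone 7 of the 16 lower calls held, those of Ezh2, Eed, Hmgb2, Hmgb3, Cbx1, Hdac1 and Hdac6, and all 3 higher ones.

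Day 2 was set against day 0 for the changes in the first days after the medium was switched. Ezh1, both probe sets of Cbx5, Hmgb2, Hmgb3 and Ezh2 rose, and Smarcd1, Chd1, Hdac7 and Smarcb1 fell. These 6 probe sets higher compare with 11.2% of all tested probe sets that were higher, and the 4 lower with 10.4% lower. Both directions together, 19.6% of the 51 were called, against 21.6% of all tested. The arrays of the days lay apart for all 10, as for 98.5% of all called, and over the 51 the days lay apart for 19 (37.3%), against 37.7% of all tested. The median change of the 51 was -0.01. The genes Ezh2, Hmgb2, Hmgb3 and Cbx5 (its brighter probe set) were the 4 that had fallen by day 0 and rose again by day 2. Of the cell division list, 10 of 17 rose over the same days and 1 fell, with a median of 0.56, and their part in the rises was not tested. Leaving out the largest chip lot gave 4 calls and leaving out the scan day that held both days gave 7, and all of these changed in the same direction within the batch left out. That lot held 2 arrays of each of the days, and that scan day 1 of each. With the scan day as a factor the calls of Hmgb3, Cbx5 (its brighter probe set) and Smarcd1 held and the other 7 ended.

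**Figure D2:**
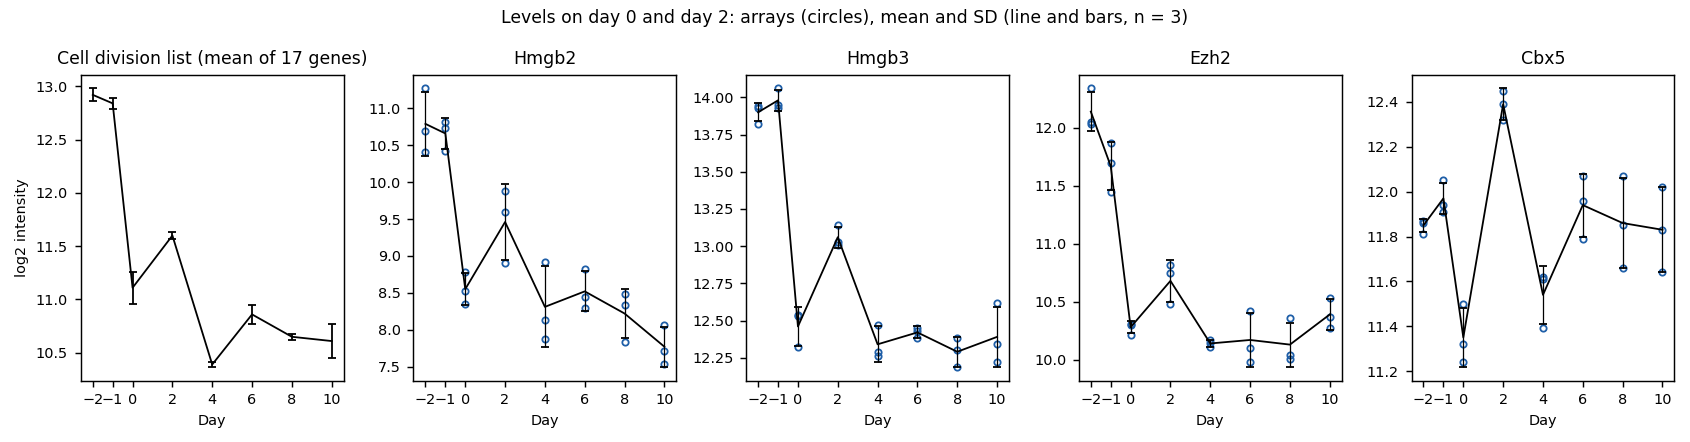
Log2 intensity by day for the mean of 17 cell division genes (first panel) and for Hmgb2, Hmgb3, Ezh2 and Cbx5; circles are single arrays, and lines and bars are daily means and SD (n = 3; the first panel shows means and SD only). In all 5 panels day 2 stands above day 0 and above day 4, and in Cbx5 it also stands above the proliferating days.

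Day 10 was set against day 2 for the changes during myotube maturation. Hmgb2, Hmgb3, Cbx5, Hdac2 and Hmgn1 fell, and Ezh1 and Kat2b rose. These are 5 lower, against 7.27% of all tested probe sets, and 2 higher, against 6.53%. Both directions together, 13.7% of the 51 were called, against 13.8% of all tested. The arrays lay apart for all 7, as for 97.5% of all called, and over the 51 for 15 (29.4%), against 29.2% of all tested. The median change of the 51 was -0.09, and 16 of 17 cell division genes were lower, with a median of -0.79. The 2 rises were not called with chip lot as a factor, at 0.70 for Ezh1 and 0.50 for Kat2b, or in the largest lot alone, at 0.64 and 0.28, nor when any of several single arrays was left out, as given with each gene. With the scan day as a factor Hmgb3 and Kat2b kept their calls and the other 5 lost them.

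The mean of days 6, 8 and 10 was set against that of days -2 and -1 to compare established myotubes with dividing myoblasts. Of the 51 probe sets, 28 were lower, where 27.7% of all tested probe sets were lower, and 8 were higher, where 27.6% were higher. Both directions together, 70.6% of the 51 were called, against 55.3% of all tested. The median change was -0.40 log2 units, against 0.05 over all tested probe sets. The largest falls were those of Hmgb2, Ezh2, Cbx2, Hmgb3 and Kat2a, and the largest rises those of Ezh1, Kdm5b, Hdac5, Kdm3a and Kat2b. By gene, with the brightest probe set standing for each, 25 of 41 were lower and 7 higher. That is 78% called, above the share by probe set, and no share by gene over all genes is given here. Of the 36 called, 11 changed at least 2-fold (30.6%, against 30.9% of all called). For 24 the 9 late arrays did not overlap the 6 of the proliferating days, which is 66.7% of the members called against 48.4% of all called. The 17 cell division genes were all lower, with a median of -2.24, and their part in the falls was not tested. Within the batches that held both sides, between 92.9% and 100% of the probe sets called without a batch's arrays kept their direction within it. The largest lot held 4 late and 2 early arrays, and each of the other batches held only 1 late array. With the scan day as a factor 16 of the 28 lower calls and 5 of the 8 higher ones held. Those that ended were Cbx1, the brighter probe set of Cbx2, Chd4, Chd8, Hdac2, Hdac7, Hmgn5, Kat2a, both probe sets of Smarca5, Smarcc1 and 1 of Smarcd2 among the lower, and Kdm6a, Smarce1 and 1 of Smarcd2 among the higher. In the largest lot alone 21 lower and 7 higher calls held, and those of Cbx6, Chd4, Kat7, Smarca4, the dimmer Smarca5, Smarcc1 and 2 of Smarcd2 ended.

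**Figure D3:**
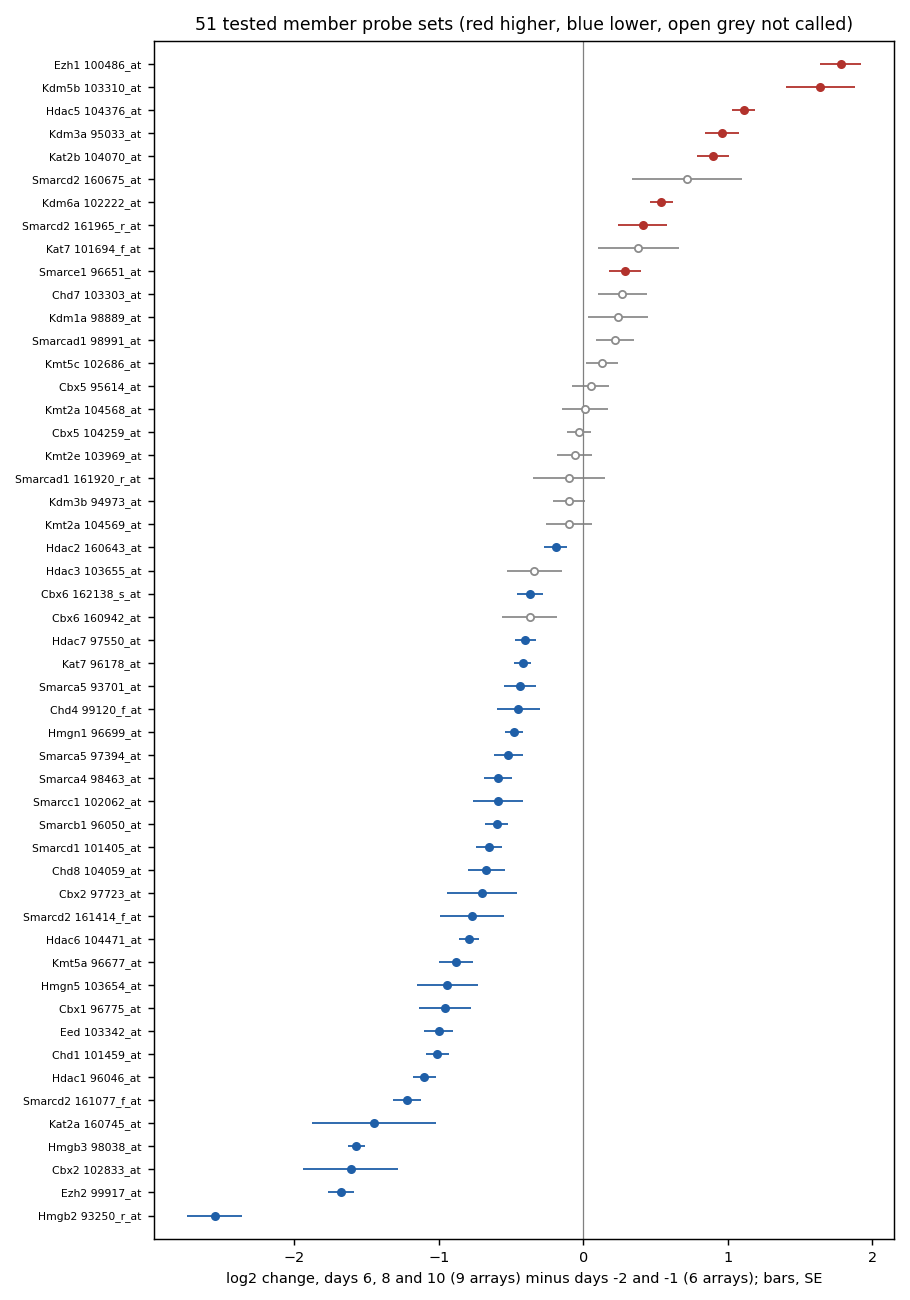
Log2 change of the 51 tested probe sets between days -2 and -1 (6 arrays) and days 6, 8 and 10 (9 arrays), in order of size, with bars for the standard error of the limma fit; filled red points are called higher, filled blue lower, and open grey points were not called. Ezh1 stands at the top with 1.78 and Hmgb2 at the bottom with -2.55.

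Among the Polycomb proteins, the 2 alternative catalytic subunits of the complex that trimethylates histone H3 moved in opposite directions. Ezh2 measured 12.03, 12.05 and 12.34 log2 units on day -2, 11.70, 11.87 and 11.45 on day -1, and 10.31, 10.21 and 10.30 on day 0. It then measured 10.48, 10.75 and 10.82 on day 2, 10.14, 10.17 and 10.11 on day 4, and 10.37, 10.27 and 10.53 on day 10. All 6 proliferating arrays lay above all 18 later ones. Ezh2 fell by 1.86 ± 0.15 (SE, 3.64-fold) from day -2 to day 0 (adjusted p = 6.29e-10) and was lower by 3.20-fold on the late days (-1.68 ± 0.09, adjusted p = 2.76e-13). Both calls held in every setting tried. Its small rise to day 2 (0.41 ± 0.15, adjusted p = 0.0475) was lost on leaving out 1 array in 15 of the 24 cases (adjusted p from 0.05 to 0.18), and was 0.18 with the scan day as a factor.

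Ezh1 measured 8.74, 8.34 and 8.68 on day -2 and 8.93, 8.70 and 8.68 on day -1, and it was still at 8.95, 8.57 and 8.66 on day 0. The arrays read 9.73, 9.49 and 10.04 on day 2, 10.50, 10.72 and 10.84 on day 4, and 10.57, 10.25 and 10.65 on day 10. Day 2 stood between the early arrays and those of day 4 without touching either, and day -2, day -1 and day 0 overlapped. Ezh1 was not called at day 0 (0.14 ± 0.21, adjusted p = 0.705), rose by 1.02 ± 0.21 to day 2 (adjusted p = 8.23e-04) and was 3.43-fold higher on the late days (1.78 ± 0.14, adjusted p = 9.15e-11). Its further rise from day 2 to day 10 (0.74 ± 0.21, adjusted p = 0.0220) ended without replicate 1 or 2 of day 2 or replicate 1 or 3 of day 10 (adjusted p from 0.0648 to 0.125).

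Eed, the subunit that holds the complex on its own mark, followed Ezh2 in time. Its arrays measured 11.11, 10.80 and 11.16 on day -2, 9.77, 9.96 and 9.67 on day 0, 10.21, 10.29 and 10.10 on day 2 and 9.56, 9.57 and 9.73 on day 4. Day 2 lay above day 0 and day 4 on all arrays and below day -2 on all. The fall to day 0 (-1.22 ± 0.16, adjusted p = 1.48e-06) and the late difference (-1.00 ± 0.10, adjusted p = 1.16e-08) held in every setting, while the step to day 2 was not called (0.40 ± 0.16, adjusted p = 0.0756).

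Cbx2 and Cbx6 belong to the other Polycomb complex, whose chromobox proteins read the mark that the Ezh2 complex writes. The brighter probe set of Cbx2 averaged 10.0 ± 0.28 (SD, n = 3) on day -2, 8.69 ± 0.41 on day 0, 9.59 ± 0.11 on day 2 and 8.10 ± 1.59 on day 10, when 1 of its arrays lay at the floor and the others at 9.08 and 8.96. It was called on the late days (-1.61 ± 0.33, adjusted p = 2.00e-04) and missed the call at day 0 (-1.30 ± 0.51, adjusted p = 0.0538). Its dimmer probe set was lower in both comparisons, by -0.99 ± 0.36 and -0.70 ± 0.24, but without replicate 2 of day 0, which read 7.60 against 8.93 and 9.35, the day 0 difference was -0.47 and not called. It also ended without any one array of day -2, with chip lot as a factor (-0.44) and in the largest lot alone (-0.62), and the late difference was -1.21 with the scan day as a factor. Cbx6 fell from 11.68 ± 0.26 on day -2 to 11.10 ± 0.20 on day 0 (-0.58 ± 0.14, adjusted p = 0.00170) and stood at 11.67 ± 0.20 on day 4. The day 0 change was -1.13 with the scan day as a factor and was not called in the largest lot alone. These values are from an _s probe set, not designed by the usual Affymetrix rules. It was also called lower late (-0.37), a call that ended in the largest lot alone (-0.24). A dimmer probe set of Cbx6, without such a suffix, was called in none of the 4 comparisons. Cbx7, also of this group, was too dim to test.

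**Figure D4:**
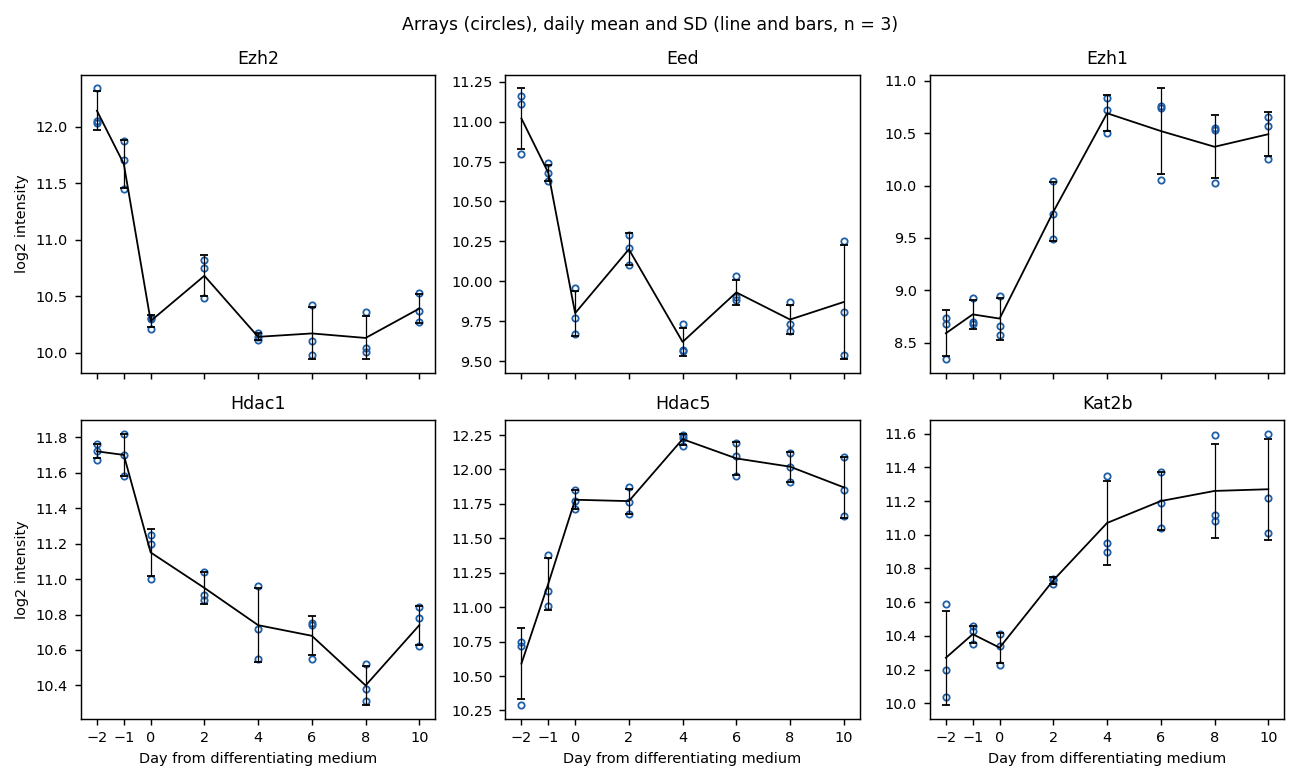
Log2 intensity by day for Ezh2, Eed, Ezh1, Hdac1, Hdac5 and Kat2b; circles are single arrays, and lines and bars are daily means and SD (n = 3). Ezh2, Eed and Hdac1 are lower on every day from 0 on than on days -2 and -1, Hdac5 is already higher on day 0, and Ezh1 and Kat2b are higher from day 2 on.

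The histone deacetylases separated by member: 6 genes were tested, and on the late days 4 were lower (Hdac1, Hdac2, Hdac6, Hdac7) and 1 was higher (Hdac5). Among all tested probe sets 27.7% were lower late and 27.6% higher. Hdac5, a class IIa enzyme that binds MEF2 factors, measured 10.75, 10.72 and 10.29 on day -2, 11.38, 11.01 and 11.12 on day -1 and 11.77, 11.85 and 11.71 on day 0. It stayed between 11.66 and 12.25 on all 15 arrays after day 0. Every array of day -1 lay between those of day -2 and day 0. The rise to day 0 was 2.28-fold (1.19 ± 0.13, adjusted p = 1.08e-07) and the late difference 2.16-fold (1.11 ± 0.08, adjusted p = 5.27e-11), and both calls held in every setting.

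Hdac1, a class I enzyme of several repressor complexes, measured 11.76, 11.67 and 11.72 on day -2, 11.00, 11.25 and 11.20 on day 0, 10.91, 11.04 and 10.88 on day 2 and 10.31, 10.52 and 10.38 on day 8. All arrays from day 0 on lay below the 6 proliferating ones. It fell by 0.56 ± 0.12 to day 0 (adjusted p = 6.59e-04) and was 2.14-fold lower on the late days (-1.10 ± 0.08, adjusted p = 1.65e-11). Its close paralog Hdac2 ranged only between 11.89 ± 0.17 on day 10 and 12.41 ± 0.06 on day 2. Hdac2 fell by 0.52 ± 0.12 from day 2 to day 10 (adjusted p = 0.00410), and its late difference (-0.19 ± 0.08, adjusted p = 0.0380) ended on leaving out 1 array in 10 of the 24 cases (adjusted p from 0.0503 to 0.0896). It was -0.10 with the scan day as a factor and -0.29 in the largest lot alone.

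Hdac6, best known as a tubulin deacetylase, averaged 12.1 ± 0.09 (SD, n = 3) on day -2 and 12.23 ± 0.15 on day -1 and lay between 11.15 and 11.68 on the 18 later arrays, with no overlap (-0.79 ± 0.07 on the late days, adjusted p = 4.43e-10). Hdac7, a class IIa enzyme like Hdac5, was high on day 0 and lower on day 2. It measured 12.09, 12.13 and 12.15 on day 0 and 11.61, 11.48 and 11.84 on day 2, and fell by 0.48 ± 0.11 (adjusted p = 0.00307). Hdac3, the enzyme of the NCoR corepressor complex, varied more between arrays, from 9.50 to 11.02 on day 0 alone, and was called in none of the comparisons (late -0.34 ± 0.19, adjusted p = 0.131).

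Of the acetyltransferases, Kat2b (PCAF), a coactivator of MyoD, rose slowly. Its arrays measured 10.20, 10.04 and 10.59 on day -2, 10.34, 10.23 and 10.41 on day 0, 10.71, 10.73 and 10.74 on day 2 and 11.22, 11.01 and 11.60 on day 10. Day -2 and day 0 overlapped, and all arrays from day 2 on lay above both. The late difference was 1.87-fold (0.90 ± 0.11, adjusted p = 1.85e-07) and held in every setting. The rise from day 2 to day 10 (0.54 ± 0.17, adjusted p = 0.0333) ended when any of the 3 arrays of day 2 or replicate 1 or 3 of day 10 was left out (adjusted p from 0.0628 to 0.168), and was 0.85 with the scan day as a factor.

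Kat2a (GCN5), the paralog of Kat2b, varied widely between arrays: it measured 10.37, 8.20 and 10.50 on day -2, 7.85, 6.95 and 7.55 on day 4 and 9.52, 7.79 and 9.74 on day 8. Replicate 2 was far below the others on day -2, on day 2 (7.37 against 9.54 and 9.59) and on day 8. It was also the lowest array on days 0, 4 and 6. The late difference of Kat2a, -1.45 ± 0.43 (adjusted p = 0.00629), was called although the arrays of the days overlapped, and the largest of its daily SDs was 1.29. Kat7 (HBO1), an acetyltransferase of histone H4 and H3 linked to replication origins, ranged over 0.54 log2 units only. It was lower on the late days (-0.42 ± 0.06, adjusted p = 7.57e-06), and its call at day 0 (-0.35 ± 0.10) ended without replicate 2 of day -2 or replicate 3 of day 0 (adjusted p from 0.0530 to 0.0823) and was -0.23 in the largest lot alone, not called. A dimmer _f probe set of Kat7 went the other way late without being called (0.38 ± 0.28, adjusted p = 0.272).

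High mobility group proteins bend DNA (Hmgb) or bind nucleosomes (Hmgn). All 4 tested genes were lower on the late days, where 27.7% of all tested probe sets were lower. Hmgb2 had the widest range of all the chromatin regulators, 8.11-fold between days. It measured 11.27, 10.41 and 10.69 on day -2, 8.78, 8.35 and 8.52 on day 0, 9.60, 9.88 and 8.90 on day 2 and 7.54, 8.06 and 7.71 on day 10. Day 2 lay above day 0 and day 10 on all arrays and below day -2. Hmgb2 fell by 2.24 ± 0.30 to day 0 (adjusted p = 2.32e-06) and by 1.69 ± 0.30 from day 2 to day 10 (adjusted p = 3.65e-04), and was 5.87-fold lower on the late days (adjusted p = 6.06e-11). Its rise to day 2 (0.91 ± 0.30, adjusted p = 0.0302) ended without replicate 2 or 3 of day 0 or replicate 1 or 2 of day 2 (adjusted p from 0.0770 to 0.174), under quantile normalization and without the filter on low values.

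Hmgb3 moved the same way with less spread: 13.82, 13.93 and 13.94 on day -2, 12.54, 12.53 and 12.32 on day 0, 13.03, 13.01 and 13.14 on day 2, 12.29, 12.47 and 12.26 on day 4 and 12.34, 12.22 and 12.62 on day 10. Day 2 stood apart from every other day. The changes were -1.43 ± 0.10 to day 0 (adjusted p = 5.17e-11), 0.60 ± 0.10 to day 2 (adjusted p = 5.84e-05), -0.67 ± 0.10 from day 2 to day 10 (adjusted p = 4.73e-05) and -1.57 ± 0.06 on the late days (adjusted p = 5.20e-16). All 4 calls held in every setting.

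Hmgn1 was the brightest of the set at 15.54 ± 0.21 on day -1 and 14.98 ± 0.09 on day 10, a late difference of -0.48 ± 0.06 (adjusted p = 7.86e-07) with no overlap. Its fall from day 2 to day 10 (-0.33 ± 0.10, adjusted p = 0.0305) ended without replicate 1 or 3 of either day. In the largest lot alone the late difference was -0.30 and the fall from day 2 was -0.15. Hmgn5 measured 10.95, 10.88 and 10.80 on day -2 and 10.34, 8.97 and 10.07 on day 0. Without replicate 2 of day 0 its fall was -0.67 in place of -1.08 ± 0.32 and was not called (adjusted p = 0.115). Nor was it called with chip lot as a factor (-0.68), with the scan day as a factor (-1.61) or in the largest lot alone (-0.74). The late difference (-0.94 ± 0.21, adjusted p = 5.08e-04) lost its call only with the scan day as a factor (-0.65, adjusted p = 0.196). Genes of this family have close copies in the genome, and the suffixes _f, _r and _s mark probe sets that Affymetrix could not design by its usual rules, so the levels of Hmgb2 and of other such probe sets are less certain.

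The heterochromatin proteins Cbx1 (HP1 beta) and Cbx5 (HP1 alpha) bind methylated histone H3. Cbx5, on its brighter probe set, peaked on day 2: it measured 11.87, 11.86 and 11.81 on day -2, 11.32, 11.24 and 11.50 on day 0, 12.39, 12.45 and 12.32 on day 2, 11.39, 11.62 and 11.61 on day 4 and 11.83, 11.64 and 12.02 on day 10. Day 2 stood above all other arrays. It fell by 0.49 ± 0.12 to day 0 (adjusted p = 0.00177), rose 2.05-fold to day 2 (1.04 ± 0.12, adjusted p = 3.07e-07) and fell by 0.56 ± 0.12 to day 10 (adjusted p = 0.00182). A dimmer probe set also rose to day 2 (0.81 ± 0.20, adjusted p = 0.00426), and the late difference was called for neither (-0.03 ± 0.08 and 0.05 ± 0.13). The day 0 fall of the brighter one was -0.23 with the scan day as a factor.

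Cbx1 measured 10.35, 9.93 and 9.46 on day -2, 8.98, 8.40 and 8.72 on day 0 and 9.08, 9.18 and 9.29 on day 2. The fall to day 0 was 2.32-fold (-1.22 ± 0.27, adjusted p = 0.00117), and the late difference was -0.96 ± 0.18 (adjusted p = 6.44e-05). With the scan day as a factor these were -0.71 and -0.24, and neither was called.

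The SWI/SNF and related remodelling subunits gave 13 tested probe sets of 8 genes. On the late days 8 probe sets were lower and 2 higher, against 27.7% and 27.6% of all tested probe sets. Smarcd1 (BAF60a), which links the complex to transcription factors, was called after day 0 and not before. It measured 10.49, 10.32 and 10.59 on day -2, 10.62, 10.70 and 10.60 on day 0 and 9.51, 9.82 and 9.60 on day 2. All day 0 arrays lay above all of day 2. The fall to day 2 was 1.99-fold (-1.00 ± 0.14, adjusted p = 7.09e-06), held in every setting, and left the gene lower on the late days (-0.65 ± 0.09, adjusted p = 1.17e-06).

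Smarcd2 (BAF60b) had 4 tested probe sets that disagreed. The brightest, an _f probe set, stood at 12.01 ± 0.17 on day -2, 11.48 ± 0.18 on day 0 and 10.85 ± 0.34 on day 10 (late -1.22 ± 0.10, adjusted p = 4.62e-10). The next in brightness, an _r probe set, was higher by 0.41 ± 0.17 (adjusted p = 0.0383), a call lost on leaving out 1 array in 8 of the 24 cases. Without replicate 3 of day -2 it was 0.27, with the scan day as a factor 0.26 and in the largest lot alone 0.11. The second _f probe set was lower by -0.77 ± 0.22. This came to -0.04 with the scan day as a factor and was not called in the largest lot alone (-0.72). The dimmest, which alone has no such suffix, was not called and averaged 6.74 on day -2, 8.22 on day 6 and 7.36 on day 10. The day 0 call of the brightest (-0.52 ± 0.16, adjusted p = 0.0130) ended without replicate 3 of either day and was -0.97, not called, with the scan day as a factor.

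The ATPase gene Smarca4 (BRG1) stood at 12.97 ± 0.28 on day -2, 12.37 ± 0.23 on day 0 and 12.39 ± 0.10 on day 10. It fell by 0.60 ± 0.16 to day 0 (adjusted p = 0.00404) and was lower late by -0.59 ± 0.10 (adjusted p = 2.39e-05), although 1 late array, at 12.81, reached the range of the early ones. The day 0 change was -0.22 with the scan day as a factor and -0.40 in the largest lot alone, and the late one -0.32 in that lot, none of them called. Smarca2 (BRM), the alternative ATPase, was too dim to test: its arrays lay at the floor on day -2 and between 6.88 and 8.38 on all other days. Smarcb1 (SNF5), a core subunit, stood at 12.20 ± 0.12 on day 0 and 11.76 ± 0.11 on day 2 and was lower late by -0.60 ± 0.08 (adjusted p = 1.17e-06). Its step to day 2 (-0.44 ± 0.13, adjusted p = 0.0145) ended without replicate 1 of day 0 or replicate 2 of day 2 and was -0.26 with the scan day as a factor.

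Smarca5 (SNF2H), an ISWI ATPase, was lower late on both probe sets (-0.52 ± 0.10 and -0.44 ± 0.11), and the brighter one stepped from 11.37 ± 0.04 on day 2 to 10.73 ± 0.26 on day 4. The core subunit Smarcc1 (BAF155) was lower late by -0.59 ± 0.17 (adjusted p = 0.00607), which came to -0.29 with chip lot as a factor and -0.16 in the largest lot alone and was not called in either. Smarce1 (BAF57) was higher by 0.29 ± 0.11 (adjusted p = 0.0340), a call lost without any of 5 arrays, and by 0.55 in the largest lot alone. Smarcad1 was called in none of the comparisons.

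Of the CHD remodellers, Chd1, which binds methylated histone H3 at active genes, fell in steps from the first days. It measured 11.58, 11.49 and 11.74 on day -2, 11.12, 10.99 and 11.17 on day -1, 11.09, 10.93 and 11.02 on day 0, 10.48, 10.48 and 10.64 on day 2 and 10.01, 10.42 and 10.29 on day 4. Day -1 and day 0 overlapped, and day 2 lay below both. It fell by 0.59 ± 0.13 to day 0 (adjusted p = 7.49e-04) and by 0.48 ± 0.13 to day 2 (adjusted p = 0.00740), and was 2.02-fold lower late (-1.01 ± 0.08, adjusted p = 2.17e-10). Chd8 was lower late by -0.67 ± 0.13 (adjusted p = 1.16e-04), which came to -0.43 with chip lot as a factor and to -0.44, not called, with scan day, and Chd7 was not called (0.27 ± 0.17). Chd4, the ATPase of the NuRD complex, was called lower late on its only probe set, an _f one (-0.45 ± 0.15, adjusted p = 0.0156). The call ended without replicate 3 of day -2 or replicate 1 of day -1 (-0.37 in each), and the difference was -0.27 with chip lot as a factor and 0.02 with scan day.

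Among the lysine methyltransferases, Kmt5a, which adds a single methyl group to histone H4 in dividing cells, was called and the other 3 genes were not. Kmt5a measured 11.79, 12.50 and 12.25 on day -2, 11.14, 11.79 and 11.27 on day 0 and 10.91, 11.21 and 11.21 on day 10. Its highest day 0 array equalled the lowest of day -2 at 2 decimals, and day 10 overlapped day 0 and lay below day -2. The changes were -0.78 ± 0.19 to day 0 (adjusted p = 0.00248) and -0.88 ± 0.12 late (adjusted p = 1.58e-06). The first was -0.23 with the scan day as a factor and -0.59 in the largest lot alone, not called in either, and the second -0.46 in that lot. Kmt2a (MLL1), the activating methyltransferase, gave 0.01 ± 0.16 and -0.10 ± 0.16 on its 2 probe sets late. Kmt2e gave -0.06 ± 0.12 and Kmt5c, which extends the mark of Kmt5a, 0.13 ± 0.11.

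The lysine demethylases were the only role in which every late call was upward: 3 of 5 genes were higher and none lower. Of these, Kdm5b was bright enough to be tested only through later days, so its direction carries no weight here. The call of Kdm6a ended with the scan day as a factor (0.49, adjusted p = 0.0614). Late, 27.6% of all tested probe sets were higher and 27.7% lower. Kdm3a, which removes a repressive mark from histone H3, measured 9.50, 9.87 and 9.54 on day -2, 10.23, 10.99 and 10.33 on day 0 and 10.80, 10.80 and 11.03 on day 4. All day 0 arrays lay above all of day -2. The rise to day 0 was 1.84-fold (0.88 ± 0.18, adjusted p = 5.91e-04) and the late difference 1.95-fold (0.96 ± 0.12, adjusted p = 2.61e-07).

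Kdm5b, which removes an activating mark from histone H3, lay at the floor on all arrays of day -2 and measured 7.39, 7.38 and 7.36 on day -1, 7.96, 8.43 and 8.40 on day 0, 6.81, 8.29 and 6.69 on day 4 and 8.67, 8.62 and 8.56 on day 10. Day 4 dipped on 2 of its 3 arrays. All arrays of day -2 and day -1 lay below the intensity limit for testing, 277.7, so Kdm5b entered the test only through later days, when it was higher. The rise to day 0 was at least 1.99 ± 0.37 (adjusted p = 1.79e-04) and the late difference 1.64 ± 0.24 (adjusted p = 3.28e-06), with 3 of the 6 early arrays at the floor. With the floor at the 40th percentile these were 0.20, not called, and 0.41, and with the floor at the 5th percentile the first was 3.01. Kdm6a (UTX), which erases the mark written by Ezh2 and Ezh1, measured 9.97, 10.10 and 10.03 on day -2, 10.71, 10.73 and 10.44 on day 2 and 10.54, 10.55 and 10.54 on day 10, and was higher late by 0.54 ± 0.08 (adjusted p = 9.13e-06). Kdm1a (LSD1; 0.24 ± 0.21) and Kdm3b (-0.10 ± 0.11) were not called.

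The DNA methyltransferase Dnmt3a, the histone methyltransferase Suv39h2 and Chd1l, Hmgb4, Kdm5a and Kdm5d were too dim to test, as were Cbx7 and Smarca2. The 13 untested probe sets had a highest daily mean intensity between 51.63 and 271.7, below the limit of 277.7, and the dimmest tested one reached 298.6. Suv39h1, Hmgb1, Hmgn2, Cbx3, Hdac4, Hdac9, Hdac11, Smarcd3, Dnmt3b and Kat5 were not analysed here.

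Other chromatin genes were taken from a list of 70, of which 51 were tested. Of these, 22 were lower and 6 higher at day 0, where 16.1% and 16.5% of all tested probe sets were. At day 2 the counts were 4 and 4, against 10.4% and 11.2% of all. From day 2 to day 10 they were 10 lower and 1 higher, against 7.27% and 6.53%. Late they were 31 lower and 7 higher, against 27.7% and 27.6%. Called in either direction were 54.9%, 15.7%, 21.6% and 74.5% of the 51 in these comparisons, against 32.6%, 21.6%, 13.8% and 55.3% of all tested. The median late change of these other genes was -0.40, as for the 51 chromatin probe sets. Partners of the families above were among the lower ones late: Suz12 (-0.97 ± 0.14), which joins Ezh2 and Eed in 1 complex, its histone-binding partners Rbbp7 (-0.83 ± 0.07) and Rbbp4 (-0.39 ± 0.06), and the SWI/SNF subunit Actl6a (-1.09 ± 0.08). The maintenance DNA methyltransferase Dnmt1 (-1.25 ± 0.09) and its guide Uhrf1 (-2.22 ± 0.13) were lower too. The largest falls were those of Hmga2 (-3.33 ± 0.16), Hells (-2.97 ± 0.19) and Asf1b (-2.39 ± 0.13). The largest rises were those of Smyd1, a methyltransferase of striated muscle (at least 5.80 ± 0.10, all 6 early arrays at the floor), Padi2, an enzyme that converts arginine in histones (2.66 ± 0.25), and Sirt1, a deacetylase (1.17 ± 0.26, 2 of 6 early arrays at the floor).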

How the data were processed

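The deposited values were linear intensities, 1 per probe set and array, made by the authors. The sources used here do not give how probes were summarised. Each array's mean, trimmed of 2% of values at both ends, was 1500.85 to 1500.98. The chip lot and scan day of each array came from the array information files, per the file headers. Names came from the platform annotation, with symbols updated through a RefSeq gene table; 10833 of 12422 named 1 symbol, 396 several and 1193 none.

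Values under the 20th percentile, 77, were raised to it, which put between 15.7% and 25.6% of an array at this floor, and log2 was taken. Probe sets with a mean above the 40th percentile, 277.7, on at least 1 day were tested, 8479 in all. A single limma model (version 3.58.1, R 4.3.3) held all 8 days (eBayes with trend, 16 residual degrees of freedom, 6.43 from the prior). Tests were two-sided, and p-values were adjusted by Benjamini-Hochberg over the 8479. The script was tested on simulated data. The number of arrays limits the precision.

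The chromatin genes, the other lists and the comparisons were chosen with earlier results of these data known. Named were the 5 largest rises and falls of each comparison, the 2 widest ranges in each role and a fixed set of genes, and most other tested genes were named for completeness. A gene with several probe sets was represented by the brightest on average. Alternatives were other floors, a pseudocount, quantile normalization, no filter, no trend, a replicate block, chip lot and scan day as fixed or random factors, the largest lot alone, and leaving out each array. Arrays with the same replicate number on different days deviated from their day means with a correlation of 0.033 on average (from -0.195 to 0.323, over 0.1 in 17 of 84 pairs). Arrays with different numbers gave -0.017 on average, and 17 of the 24 arrays deviated most like those of their own number. The labels named no pairing, so the main fit did not take the numbers as pairs, and the replicate block was kept as an alternative. Plots used matplotlib 3.10.9 (Python 3.11.15).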

Additional observations from a re-analysis of the deposited data

How the results depend on the processing

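Of the 72 single calls, 72 held with the floor at the 5th percentile, with a pseudocount and with the replicate block, 71 with the floor at the 40th percentile and with chip lot as a random block, 70 without the trend and with a random block for the scan day, and 69 under quantile normalization. Without the filter 67 held, with chip lot as a fixed factor 60, in the largest chip lot alone 50 and with scan day as a fixed factor 32. The last 2 fits had 3 and 6 residual degrees of freedom, and the largest lot held no array of day 4. The replicate numbers share no pairing in the labels, and the replicate block gave 32 probe sets differing among the days, as without it.

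With scan day as a fixed factor the counts were 19 in place of 32 over the 8 days, 1 higher and 5 lower for day 0 against day -2 (in place of 3 and 16), 2 and 1 for day 2 against day 0 (6 and 4), 1 and 1 for day 10 against day 2 (2 and 5), and 5 and 17 late (8 and 28). Of all tested probe sets, 29.8% differed over the 8 days with this factor, in place of 55.2%. The largest lot alone gave 8 lower for day 0 against day -2 and 0 higher for day 10 against day 2, and chip lot as a fixed factor also gave 0 for the latter. With single arrays left out, the counts ran from 30 to 35 over the 8 days, 3 to 4 higher and 14 to 17 lower at day 0, 4 to 7 and 3 to 5 at day 2, 0 to 2 and 4 to 8 from day 2 to day 10, and 6 to 9 and 26 to 29 late. Under every setting 5 of 19 calls held at day 0, 3 of 10 at day 2, 1 of 7 from day 2 to day 10 and 18 of 36 late. Without the scan-day factor and the largest lot these were 14, 7, 4 and 31. The 1 reversal was Chd4 late, 0.02 with the scan-day factor (adjusted p = 0.951). The cause of these losses was not tested.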
